A study of Mus musculus with 16 samples.

Results

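Wild-type mouse macrophages in which Mitf, Tfe3 and Tfeb were edited were compared with wild-type macrophages edited at Rosa26. The libraries were chosen by their labels, 4 of each edit, and make up 8 of the 16 samples of the series. All were bone-marrow-derived macrophages thawed from frozen stocks of 12-week-old male Grn+/+ mice (WT), on a C57Bl/6J background with an hTfRmu/hu knock-in that every group carried, and grown in M-CSF. The cells received Cas9 nuclease with guides against all 3 genes (called TKO here) or, for control cells, against Rosa26. RNA was taken 10 days after transfection. The protocol names no selection of clones after transfection, and the share of edited alleles was not given in the sources used here. By the series' design text each of 4 batches held 1 animal of each group, and replicate numbers below are batch numbers. The other 8 samples, the same edits in cells of Grn-/- mice (GrnKO), which lack progranulin, entered the fit and serve as the comparison at the end.

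Mitf, Tfe3 and Tfeb encode transcription factors of the MiT/TFE family, which bind E-box sequences in promoters of lysosomal and autophagy genes. The Rag GTPases recruit them to the lysosome, where the kinase complex mTORC1 phosphorylates them and holds them in the cytoplasm, and starvation or lysosomal stress lets them enter the nucleus. In macrophages they are also known for roles in the response to microbes, in lipid handling and, for Mitf, in the formation of osteoclasts.

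RNA was measured by 3′ tag sequencing, and levels are CPM, counts scaled to a common library size. The deposited counts hold 2 significant digits, so a level carries a rounding error of up to 5% beside its spread. WT Rosa26 libraries held total counts of 7069527 to 22469456, replicate 1 being the lowest, and WT TKO libraries 16246705 to 21463730. Markers of macrophages were high in every library: Csf1r lay at 376 to 516 CPM, Adgre1 at 465 to 754 and Lyz2 at 5407 to 6925. Of 12 lymphocyte markers 12, of 8 mast cell and basophil markers 8, of 10 neutrophil markers 9, of 9 dendritic cell markers 8 and of 8 stromal cell markers 6 were under 1 CPM in every WT library. WT Rosa26 replicate 1, the shallowest library, stood apart on the first principal component of the 8 libraries (33.3% of the variance, score 45.2 against -18.5 to 5.26), and both libraries of batch 3 on the second (26.4%). The labels give male mice, but the Y-linked Ddx3y was at 108 and 112 CPM in batch 3, with Xist, the RNA of the inactive X, at 2.93 and 3.95, while WT libraries of batches 1 and 4 had the reverse. In batch 2 both were present in both WT libraries, with Xist at 212 and 217 CPM and Ddx3y at 34.2 and 31.7. The WT libraries of a batch had like values in both edits, so this difference was balanced between them. In GrnKO the libraries of batch 4 held Ddx3y, at 97.3 and 122 CPM, so a batch was not alike in this between the genotypes. The Xist and Ddx3y values do not show whether each library came from 1 separate animal, and n below counts libraries.

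Of the targeted genes, Tfe3 fell and the other two did not pass the test. Tfe3 (ENSMUSG00000000134) was at 400.1, 329, 229.8 and 318 CPM in WT Rosa26 (replicates 1 to 4, the order of all lists of values here) and at 164, 199, 136 and 182 in WT TKO. Every TKO library lay below every Rosa26 library, and the fitted log2 change was -0.90 ± 0.17, adjusted p = 0.0108 (± SE, edgeR quasi-likelihood test, Benjamini-Hochberg over 15385 genes, as for all changes here). The call was lost in 1 of 8 fits that each left out 1 WT library, with adjusted p = 0.0533 without WT Rosa26 replicate 2. Of 4 fits without both WT libraries of a batch, 2 called Tfe3 (adjusted p up to 0.0756).

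Mitf (ENSMUSG00000035158) had levels of 200.0, 178, 216 and 165 CPM with the control edit. They were 175, 162, 171 and 132 with TKO (-0.25 ± 0.09, adjusted p = 0.172). Tfeb (ENSMUSG00000023990) was at 78.5, 89.0, 67.6 and 87.8 against 60.3, 74.6, 70.7 and 77.2 CPM, with -0.19 ± 0.12, adjusted p = 0.474. The ranges of these genes overlapped between the edits. Tfec (ENSMUSG00000029553), the family member that was not targeted, was low, at 4.77 to 7.53 against 4.29 to 6.03 CPM (-0.26 ± 0.17, adjusted p = 0.476). Edited and unedited mRNA give the same 3′ tags, so these levels do not check the editing. Grn (ENSMUSG00000034708), which checks the genotype label, was at 2875 to 3693 CPM in WT Rosa26 and 2522 to 3224 in WT TKO, with a log2 change of -0.11 ± 0.10, adjusted p = 0.652.

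In all, 515 of 15385 genes tested were called at an adjusted p under 0.05, which is 3.35%. Of these, 336 rose (2.18%) and 179 fell (1.16%), and 509 had 1 direction in all 4 batches. Most changes were small: 66 genes rose and 16 fell more than 2-fold, and the median absolute log2 change of the called genes was 0.53. The groups did not overlap in 230 of the 336 genes that rose and in 94 of the 179 that fell. Of all genes tested 5.62% did not overlap, 3.34% above and 2.28% below. Limma-trend on the authors' values + 1 called 472 genes higher and 125 lower, so that 79.1% of its calls were higher, against 65.2% by edgeR. The count rested on single libraries: it was 308 without WT Rosa26 replicate 1, 262 without replicate 2 and 750 without replicate 3 of that group. It was 266 without WT TKO replicate 2 and 268 without WT TKO replicate 4. Without both libraries of batch 3 it was 771.

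F13a1 (ENSMUSG00000039109), the A chain of coagulation factor XIII and a gene of monocytes and tissue macrophages, rose the most among the 15 largest rises of genes at 5 CPM or more. It was at 1.38, 0.411, 1.13 and 0.768 CPM in WT Rosa26 and 37.8, 55.9, 53.7 and 63.6 in WT TKO, a log2 change of 5.89 ± 0.29, adjusted p = 4.4e-08. Every TKO library lay above every Rosa26 library. In such bulk samples, more cells of a type and more RNA per cell cannot be told apart. Ccl8, a chemokine that attracts monocytes, was at 15.4, 16.4, 13.5 and 4.22 CPM in Rosa26 and 52.6, 68.4, 49.5 and 40.9 in TKO (2.17 ± 0.24, adjusted p = 2.4e-04). Saa3, an acute-phase serum amyloid, was at 32.3, 68.5, 32.4 and 65.8 against 137, 229.9, 124 and 209 CPM (1.81 ± 0.27, adjusted p = 0.00534). Replicates 2 and 4 had the higher Saa3 levels in both edits, and the groups did not overlap.

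Receptor genes were among the other large rises. Clec4n, the gene of the fungal lectin receptor Dectin-2, was at 55.4, 62.3, 34.7 and 87.8 CPM in Rosa26 and 192, 255, 153 and 295 in TKO (1.91 ± 0.27, adjusted p = 0.00411). Lifr, the receptor of leukaemia inhibitory factor, had like values within each edit, 15.4, 17.8, 14.9 and 17.0 CPM against 42.2, 43.5, 44.2 and 49.9 (1.47 ± 0.10, adjusted p = 4.4e-08). Olr1, the oxidised lipoprotein receptor LOX-1, rose by 1.46 from a mean of 2.80 to 7.84 CPM, and Fcrls, an Fc receptor-like gene of mouse microglia and macrophages, by 1.36 from 22.6 to 58.2. These 4 genes were higher in TKO in all 4 batches and kept an adjusted p under 0.05 whichever WT library was left out.

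Cp, the ferroxidase ceruloplasmin, was at 10.9, 12.3, 9.91 and 13.7 CPM in Rosa26 and 36.2, 41.6, 27.1 and 35.4 in TKO (1.57 ± 0.16, adjusted p = 2.2e-05). Apoc2, the cofactor of lipoprotein lipase, rose from 6.22 ± 1.60 to 16.5 ± 6.22 CPM (SD, n = 4; 1.42 ± 0.18, adjusted p = 9.3e-05). Mmp14, a membrane-bound matrix protease, rose from 3.41 ± 1.48 to 9.53 ± 4.65 (1.48 ± 0.21, adjusted p = 3.5e-04). Slc13a3, a sodium-coupled carrier of dicarboxylates, rose from 10.5 ± 4.37 to 34.7 ± 16.6 (1.70 ± 0.23, adjusted p = 0.00103). Replicate 4 had the highest Slc13a3 level of each edit. Ly6a, the surface antigen Sca-1, rose from 5.53 ± 1.68 to 23.5 ± 11.6 CPM (2.03 ± 0.35, adjusted p = 0.00830). By batch it was at 5.54, 6.85, 3.15 and 6.58 against 20.3, 35.4, 8.84 and 29.5 CPM, with the smallest rise in batch 3. Tmem176a and its neighbour Tmem176b, which encode membrane proteins of myeloid cells, rose by 1.42 ± 0.29 (adjusted p = 0.0268) and 1.21 ± 0.22 (adjusted p = 0.0104); the second was chosen after its values were seen. Of 2 genes without a name in the files, ENSMUSG00000120878 rose from 203 ± 52.4 to 525 ± 84.0 CPM (1.39 ± 0.10, adjusted p = 3.0e-07). The other, ENSMUSG00000120849, rose from 5.13 ± 2.99 to 17.2 ± 6.42 (1.74 ± 0.28, adjusted p = 0.00348). Some calls were lost in fits that each left out 1 of the 8 WT libraries, and the highest adjusted p is given for each. Ly6a (lost in 1 of 8) had adjusted p = 0.0505 without WT Rosa26 replicate 2. Tmem176a (lost in 5 of 8) had adjusted p = 0.0954 without WT TKO replicate 4. Tmem176b (lost in 1 of 8) had adjusted p = 0.0569 without WT Rosa26 replicate 1.

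**Figure D1:**
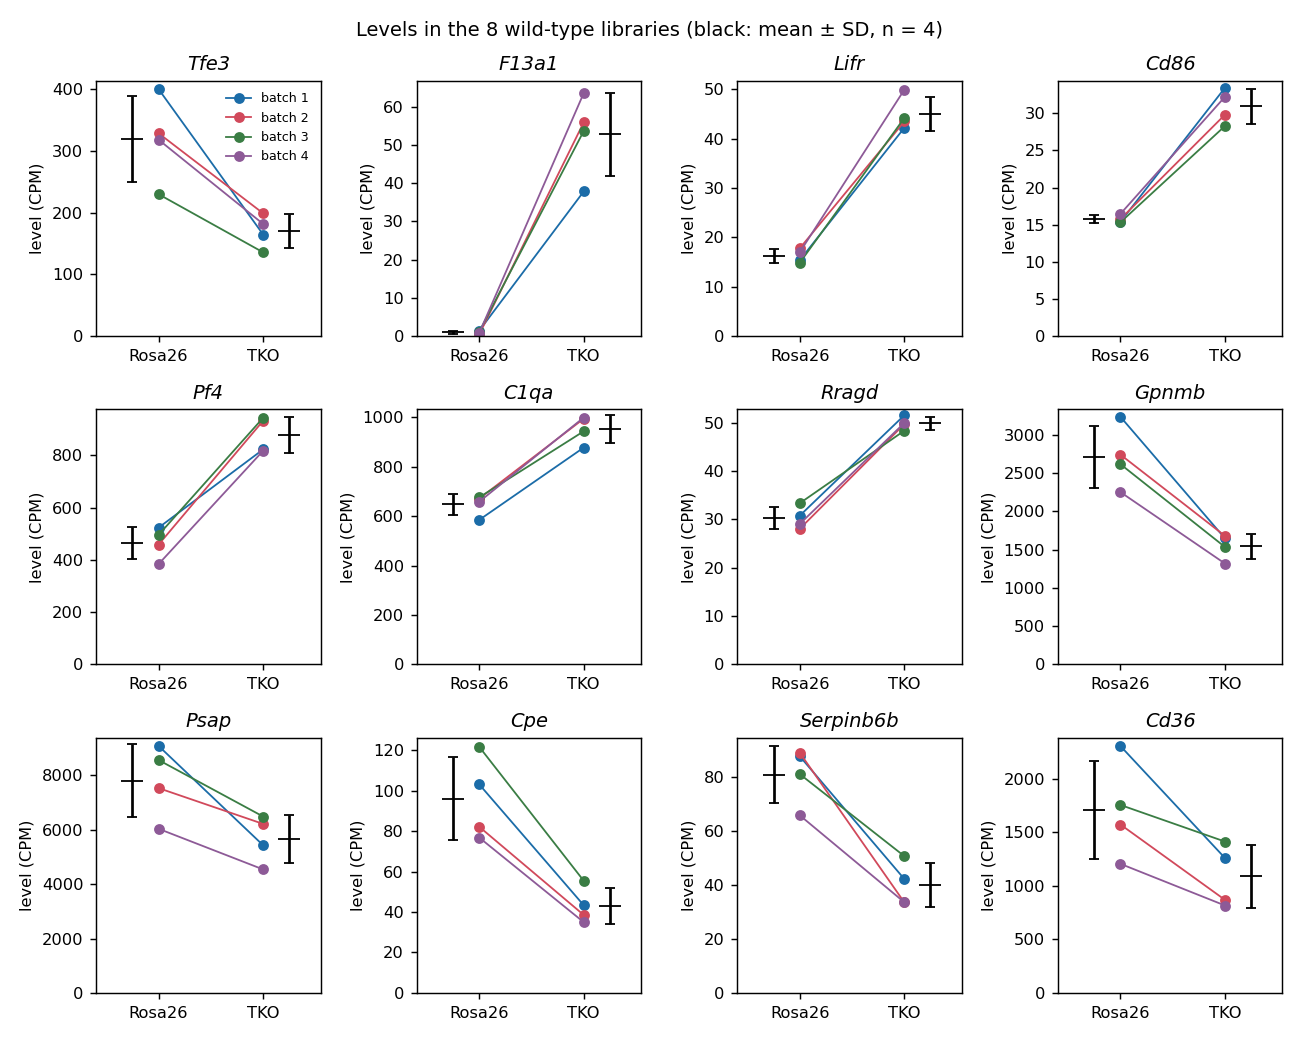
Levels in CPM of 12 genes in the 8 wild-type libraries, with the y axis from 0. Lines join the Rosa26 and TKO libraries of a batch, and black bars give the mean ± SD of 4. F13a1 was under 1.4 CPM in each Rosa26 library and over 37 in each TKO library, while Gpnmb and Cpe fell in each batch and the Cd36 and Psap levels of the edits overlapped.

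By the same rule, with the same floor of 5 CPM, the 15 largest falls lay between -1.26 and -0.81, smaller than the 15 largest rises. Lower genes fell further, such as Dio2 (-1.54), described with the genotypes. Cpe, a carboxypeptidase that trims prohormones, was at 103, 82.1, 122 and 76.8 CPM in WT Rosa26 and 43.3, 38.5, 55.4 and 35.0 in TKO (-1.15 ± 0.11, adjusted p = 1.0e-05). Serpinb6b, an intracellular inhibitor of serine proteases, was at 87.7, 89.0, 81.1 and 65.8 against 42.2, 33.6, 50.7 and 33.6 CPM (-1.03 ± 0.10, adjusted p = 1.2e-05). In both genes each TKO library lay below each Rosa26 library. Nes, the intermediate filament protein nestin, was at 52.3, 32.9, 45.1 and 36.8 against 25.2, 17.4, 25.4 and 15.0 CPM (-1.01 ± 0.16, adjusted p = 0.00258).

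Psat1, an enzyme of serine synthesis, fell from 30.6 ± 7.65 to 16.5 ± 4.74 CPM (SD, n = 4; -0.89 ± 0.11, adjusted p = 1.2e-04). Adra1a, an adrenergic receptor, fell from 11.8 ± 2.74 to 4.99 ± 1.74 CPM (-1.26 ± 0.16, adjusted p = 1.5e-04). Fabp4, a carrier of fatty acids, fell from 17.7 ± 5.98 to 9.19 ± 2.15 (-0.94 ± 0.15, adjusted p = 9.7e-04). Cdkn1c, an inhibitor of cyclin-dependent kinases, was at 6.77, 6.78, 3.74 and 8.23 CPM in Rosa26 and 2.08, 3.79, 3.24 and 2.45 in TKO (-1.14 ± 0.26, adjusted p = 0.0244), and batch 3 held the smallest difference. Low genes among the 15 were Fgf13, an intracellular relative of the fibroblast growth factors (-1.03, from a mean of 6.75 to 3.30 CPM), and Sncaip, which encodes a partner of synuclein (-1.10, 9.98 to 4.55). Others were Mamdc2 (-0.96, 5.43 to 2.74), Gm10419 (-0.90, 8.85 to 4.75), the transcription factor gene Tox2 (-0.85, 7.14 to 3.99) and Gipc2, a PDZ-domain gene (-0.81, 5.59 to 3.12). Cdkn1c (lost in 5 of 8), Fgf13 (lost in 3 of 8) and Sncaip (lost in 4 of 8) had adjusted p = 0.103, 0.0721 and 0.0813 without WT TKO replicate 4. Mamdc2 (lost in 6 of 8) had adjusted p = 0.138 without WT TKO replicate 4.

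The textbook targets of the MiT/TFE factors moved in both directions, and more of them rose than fell. Of the list, 6 rose, 3 fell and 22 of 31 were not called (median log2 change 0.16), against 2.18% and 1.16% of all genes tested and a median of -0.01 over all genes. Gpnmb (ENSMUSG00000029816), a lysosomal and cell-surface glycoprotein that MITF is known to induce, was at 3232, 2738, 2614 and 2249 CPM in WT Rosa26 and 1645, 1678, 1533 and 1317 in WT TKO, a log2 change of -0.81 ± 0.09, adjusted p = 3.1e-05. It had the largest fall of the list, and no TKO library reached a Rosa26 library. Psap, the precursor of the saposins that help lysosomal enzymes break down sphingolipids, was at 9079, 7529.8, 8562 and 6034 against 5428, 6214, 6485 and 4541 CPM (-0.46 ± 0.09, adjusted p = 0.00846). Ctsd, the aspartic protease cathepsin D, was at 7079, 6024, 6759 and 5485 against 5099, 5095, 5778 and 4995 (-0.27 ± 0.07, adjusted p = 0.0306). Both fell in each batch but overlapped across batches.

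Members that rose served the Rag GTPases, autophagy and stress. Rragd, the Rag GTPase subunit D and part of a feedback from MiT/TFE factors to mTORC1, was at 30.8, 28.1, 33.3 and 29.1 CPM in Rosa26 and 51.5, 49.7, 48.3 and 49.9 in TKO (0.71 ± 0.09, adjusted p = 9.0e-05), with no overlap. Nupr1, a nuclear stress protein, was at 11.7, 13.0, 7.21 and 14.3 against 21.9, 24.9, 17.7 and 32.7 CPM (1.08 ± 0.18, adjusted p = 0.00346). Hif1a, the oxygen-regulated subunit of hypoxia-inducible factor, rose from 212 ± 14.9 to 272 ± 19.1 CPM (SD, n = 4; 0.36 ± 0.07, adjusted p = 0.00680), with adjusted p = 0.0698 in 1 of 4 fits that left out a batch. Gabarapl1, an ATG8-family protein of autophagosomes, rose by 0.34 ± 0.08 (adjusted p = 0.0170). Plekhm1, an adaptor of autophagosome and lysosome fusion, rose by 0.31 ± 0.08 (adjusted p = 0.0406). Rragc, the paralogue of Rragd, was at 112, 109.5, 113 and 109.7 against 137, 137, 129.7 and 127 CPM (0.26 ± 0.07, adjusted p = 0.0359). Psap (lost in 1 of 8) and Gabarapl1 (lost in 5 of 8) had adjusted p = 0.0531 and 0.0782 without WT TKO replicate 4. Ctsd (lost in 6 of 8) had adjusted p = 0.122 without WT TKO replicate 1. Plekhm1 (lost in 6 of 8) had adjusted p = 0.148 without WT Rosa26 replicate 2. Rragc (lost in 7 of 8) had adjusted p = 0.139 without WT TKO replicate 2. The other 22 members were not called. Named here after their values were seen are Mcoln1, the lysosomal calcium channel (0.07 ± 0.26, adjusted p = 0.930), Sqstm1, the autophagy receptor p62 (-0.08 ± 0.07, adjusted p = 0.609), and Lamp1, a main protein of the lysosomal membrane (-0.03 ± 0.06, adjusted p = 0.891).

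**Figure D2:**
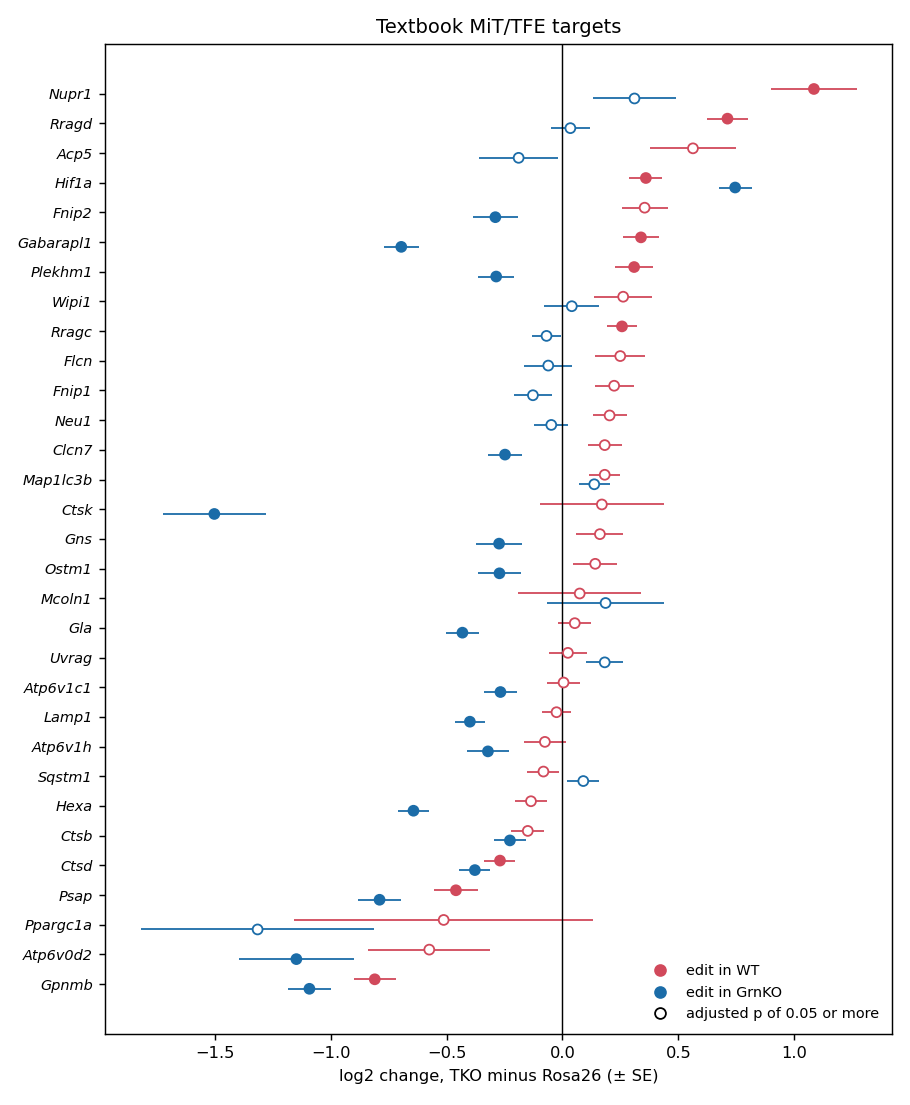
Fitted log2 change (TKO minus Rosa26, ± SE) of the 31 tested textbook MiT/TFE targets in WT cells (red) and GrnKO cells (blue), ordered by the change in WT. Filled points had an adjusted p under 0.05. Nupr1 and Rragd lay highest and Gpnmb lowest in WT, and 10 of the 31 were below 0 in WT against 23 in GrnKO. Of all 15385 genes tested, 7996 were below 0 in WT and 7755 in GrnKO.

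Promoters of Ctsd, Gpnmb, Rragc and Nupr1, and of F13a1 from outside the list, are shown because MiT/TFE factors bind the E-box CACGTG and these genes moved in different directions. Each runs from 250 bases before to 50 after the start site in RefSeq (GRCm38.p6), 5′ to 3′ on the gene's strand, with each CACGTG, which reads the same on both strands, in capitals. They are Ctsd (chr7:142387778-142388077, minus strand) and Gpnmb (chr6:49036268-49036567, plus strand), which fell, and Rragc (chr4:123917183-123917482, plus strand), Nupr1 (chr7:126625421-126625720, minus strand) and F13a1 (chr13:37050195-37050494, minus strand, the first of 2 windows of this gene), which rose.
Ctsd: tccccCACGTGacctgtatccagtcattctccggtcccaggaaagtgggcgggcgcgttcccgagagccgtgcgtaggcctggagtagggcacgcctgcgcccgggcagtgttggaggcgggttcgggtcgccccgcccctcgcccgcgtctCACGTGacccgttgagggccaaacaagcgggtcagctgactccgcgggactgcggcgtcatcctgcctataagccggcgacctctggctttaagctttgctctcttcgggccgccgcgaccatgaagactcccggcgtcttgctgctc
Gpnmb: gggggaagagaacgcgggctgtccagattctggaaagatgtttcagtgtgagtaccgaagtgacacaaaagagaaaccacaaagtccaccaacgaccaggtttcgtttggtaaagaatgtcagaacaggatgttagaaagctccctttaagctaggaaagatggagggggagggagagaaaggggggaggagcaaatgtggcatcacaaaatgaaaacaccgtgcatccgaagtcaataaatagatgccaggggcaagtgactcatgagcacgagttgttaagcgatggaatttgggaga
Rragc: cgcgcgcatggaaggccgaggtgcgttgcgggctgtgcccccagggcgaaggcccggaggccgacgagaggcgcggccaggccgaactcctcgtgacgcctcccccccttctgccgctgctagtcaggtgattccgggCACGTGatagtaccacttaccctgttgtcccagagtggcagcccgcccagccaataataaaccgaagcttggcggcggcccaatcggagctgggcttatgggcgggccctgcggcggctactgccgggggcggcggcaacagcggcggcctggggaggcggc
Nupr1: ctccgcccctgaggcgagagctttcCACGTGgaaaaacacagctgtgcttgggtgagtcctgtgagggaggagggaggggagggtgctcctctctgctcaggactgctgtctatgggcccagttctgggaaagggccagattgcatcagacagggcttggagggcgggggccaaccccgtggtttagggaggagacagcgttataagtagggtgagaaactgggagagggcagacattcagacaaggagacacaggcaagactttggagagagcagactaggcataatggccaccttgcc
F13a1: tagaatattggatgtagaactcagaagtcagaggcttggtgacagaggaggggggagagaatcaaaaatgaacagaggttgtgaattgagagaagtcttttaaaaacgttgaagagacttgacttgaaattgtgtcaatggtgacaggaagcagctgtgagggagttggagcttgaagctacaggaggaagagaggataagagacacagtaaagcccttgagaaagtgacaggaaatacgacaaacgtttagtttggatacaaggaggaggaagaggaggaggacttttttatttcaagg
Ctsd held 2 copies, Rragc and Nupr1 1 each, and Gpnmb and F13a1 none in these windows. Slc13a3, which also rose, held 1 copy in its window, which is not printed. CACGTG was in 8.09% of the 27025 windows in the table. It was in 11.6% of the 10591 tested genes with a matched window, which were 69.0% of the genes tested. Windows were matched for 75.6% of the genes that rose and 76.5% of those that fell, under 80%, so a comparison of shares between these sets is void and none is made.

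Lysosomal genes as a whole also split. Among lysosomal hydrolases 4 rose, 3 fell and 42 of 49 were not called (median log2 change 0.03), where 2.18% of all genes rose and 1.16% fell. Psap and Ctsd, described above, are 2 of the 3 that fell. Ctsh, an aminopeptidase cathepsin, was at 95.4, 130.1, 94.6 and 109.7 CPM in WT Rosa26 and 164, 168, 147 and 136 in TKO (0.52 ± 0.09, adjusted p = 0.00162). Ctsc, which activates serine proteases, rose from 55.1 ± 11.4 to 89.6 ± 20.1 CPM (SD, n = 4; 0.70 ± 0.14, adjusted p = 0.00942). Hgsnat, which degrades heparan sulfate, rose from 36.7 ± 6.09 to 52.6 ± 5.31 (0.53 ± 0.10, adjusted p = 0.00347). Among lysosomal membrane proteins 4 rose, 0 fell and 32 of 36 were not called (median log2 change 0.13), beside the same 2.18% and 1.16%. The 4 were Sidt2, of nucleic acid uptake into lysosomes (0.43, adjusted p = 0.00790), Ctns, the cystine exporter (0.37, adjusted p = 0.0243), Slc36a1, an amino acid exporter (0.37, adjusted p = 0.0360), and Npc1, the cholesterol transporter (0.31, adjusted p = 0.0426). Npc1 went from a mean of 79.8 to 99.1 CPM. Ctsc (lost in 2 of 8), Sidt2 (lost in 1 of 8) and Slc36a1 (lost in 6 of 8) had adjusted p = 0.0533, 0.0542 and 0.171 without WT Rosa26 replicate 2. Ctns (lost in 5 of 8) had adjusted p = 0.135 without WT TKO replicate 4. Npc1 (lost in 6 of 8) had adjusted p = 0.187 without WT TKO replicate 2.

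Of the V-ATPase subunits, which form the proton pump of lysosomes, 0 rose, 1 fell and 17 of 18 were not called (median log2 change -0.04). For these and the next lists the shares of all genes were again 2.18% higher and 1.16% lower. The 1 that fell was Atp6v0a1 (-0.33 ± 0.08, adjusted p = 0.0332). Of the Rag GTPase and folliculin genes, 2 rose, 0 fell and 16 of 18 were not called (median log2 change 0.08); Fnip2, a folliculin partner, missed the threshold (0.35 ± 0.10, adjusted p = 0.0571). Among autophagy genes 4 rose, 0 fell and 34 of 38 were not called (median log2 change 0.06). Beside Gabarapl1 and Plekhm1 these were Optn, an autophagy receptor (0.45, adjusted p = 0.0143), and Atg2a, a lipid transfer protein of growing autophagosomes (0.37, adjusted p = 0.0206). Among E-box factors that could share binding sites, Bhlhe41 rose by 0.38 ± 0.08 (adjusted p = 0.0164) and Bhlhe40 by 0.35 ± 0.10 (adjusted p = 0.0471). Atp6v0a1 (lost in 6 of 8) and Bhlhe40 (lost in 8 of 8) had adjusted p = 0.142 and 0.181 without WT TKO replicate 4. Optn (lost in 2 of 8), Atg2a (lost in 4 of 8) and Bhlhe41 (lost in 4 of 8) had adjusted p = 0.0598, 0.105 and 0.0836 without WT Rosa26 replicate 2.

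Genes of lipid-associated macrophages and disease-associated microglia, a programme of lipid-loaded and plaque-associated cells, fell more often than they rose: 2 rose, 8 fell and 13 of 23 were not called (median log2 change -0.22). Spp1, the secreted glycoprotein osteopontin, was at 4001, 2875, 3469.7 and 2798 CPM in WT Rosa26 and 2358, 1864, 2594 and 2179 in WT TKO (-0.55 ± 0.07, adjusted p = 2.3e-04). Cd36, a receptor for fatty acids and oxidised lipoproteins, was at 2308, 1574, 1757 and 1207 against 1261, 869.9, 1415 and 817 CPM (-0.66 ± 0.11, adjusted p = 0.00317). Spp1 did not overlap between the edits, and Cd36 did, since Rosa26 replicate 4 lay below 2 TKO libraries. Apoe, the apolipoprotein of lipid export, went the other way, at 462, 889.9, 721 and 411 against 713, 1243, 943 and 681 CPM (0.55 ± 0.10, adjusted p = 0.00400), and it was higher in TKO in each batch although the groups overlapped.

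Lpl, lipoprotein lipase, fell from 2469 ± 465 to 1736 ± 418 CPM (SD, n = 4; -0.51 ± 0.10, adjusted p = 0.00875). Pparg, the nuclear receptor that induces Cd36, Lpl and Fabp4, fell from 20.7 ± 4.65 to 13.5 ± 4.16 (-0.62 ± 0.13, adjusted p = 0.0105). Lgals3, the lectin galectin-3, fell by 0.29 ± 0.07 (adjusted p = 0.0349) and Trem2, a lipid-sensing receptor, by 0.25 ± 0.06 (adjusted p = 0.0310). Axl, a receptor for dying cells, rose from low levels (0.91, 2.28 to 4.21 CPM), while Mfge8, a bridge in the uptake of such cells, was at 109, 130.1, 108 and 104 against 65.8, 74.6, 70.7 and 77.2 CPM and fell (-0.64 ± 0.12, adjusted p = 0.00505). Of 4 fits without both WT libraries of a batch, 2 called Mfge8 (adjusted p up to 0.0709) and 3 called Cd36. Among genes of lipid uptake and droplets 3 rose, 3 fell and 10 of 16 were not called (median log2 change 0.12). Hilpda, a droplet protein that inhibits lipolysis, rose from 80.5 ± 14.9 to 123 ± 13.7 CPM (0.61 ± 0.09, adjusted p = 9.2e-04). Of 14 targets of the sterol receptor LXR, 1 rose, which was Apoe, and 0 fell. Of 24 genes of cholesterol synthesis edgeR called 0, with 5 at an unadjusted p under 0.05, while DESeq2 called 1 and limma 0. The log2 change was below 0 in 16 of the 24, against 7996 of all 15385 genes tested, with the smallest p in Msmo1 (-0.31 ± 0.09, adjusted p = 0.0650). Lpl (lost in 3 of 8) and Lgals3 (lost in 6 of 8) had adjusted p = 0.0576 and 0.161 without WT TKO replicate 2. Pparg (lost in 3 of 8) and Axl (lost in 3 of 8) had adjusted p = 0.0668 and 0.0806 without WT Rosa26 replicate 2. Trem2 (lost in 5 of 8) had adjusted p = 0.130 without WT TKO replicate 4.

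In the list of alternative activation, a macrophage state induced by interleukin-4, 7 rose, 1 fell and 5 of 13 were not called (median log2 change 0.38). F13a1 and Ccl8 are 2 of the 7, and Folr2, a folate receptor gene, named after its value was seen, was the member that fell (-0.25 ± 0.07, adjusted p = 0.0387). Mrc1, the mannose receptor CD206, was at 769, 561, 721 and 603 CPM in WT Rosa26 and 877, 808, 943 and 954 in WT TKO (0.43 ± 0.09, adjusted p = 0.00980). Clec10a, a galactose lectin, rose from 19.8 ± 5.99 to 31.3 ± 3.50 CPM (SD, n = 4; 0.66 ± 0.12, adjusted p = 0.00270). Mgl2, its paralogue, was chosen after its values were seen and rose from 3.50 ± 0.339 to 8.63 ± 1.07 (1.32 ± 0.19, adjusted p = 3.7e-04); reads of such near copies may be split by the authors' counting. Lyve1, a hyaluronan receptor of tissue macrophages, rose from 1.02 ± 0.278 to 3.45 ± 1.37 CPM (1.78 ± 0.28, adjusted p = 0.00103). Arg1 was among the 5 members not called. Retnla, Chil3 and Pdcd1lg2, also among the 16 genes listed, did not pass the filter on low counts and were not tested. Mrc1 (lost in 2 of 8) and Folr2 (lost in 6 of 8) had adjusted p = 0.0618 and 0.171 without WT Rosa26 replicate 2.

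Among complement genes 5 rose, 0 fell and 8 of 13 were not called (median log2 change 0.36). C1qa, of the complex that starts the classical pathway, was at 585, 671, 676 and 658 CPM in Rosa26 and 877, 994, 943 and 999 in TKO (0.56 ± 0.07, adjusted p = 9.0e-05), with no overlap. Its partners C1qb and C1qc rose by 0.36 ± 0.08 (adjusted p = 0.0209) and 0.27 ± 0.07 (adjusted p = 0.0371). Itgam, a chain of complement receptor CR3, rose by 0.45 ± 0.12 (adjusted p = 0.0384), and Cd55, a complement inhibitor, by 0.70 ± 0.16 (adjusted p = 0.0174). C1qb (lost in 5 of 8) had adjusted p = 0.106 without WT TKO replicate 1. C1qc (lost in 7 of 8) and Itgam (lost in 6 of 8) had adjusted p = 0.148 and 0.148 without WT Rosa26 replicate 2. Cd55 (lost in 2 of 8) had adjusted p = 0.0991 without WT TKO replicate 4.

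Chemokine genes and receptors rose in part: 9 rose, 2 fell and 12 of 23 were not called (median log2 change 0.60). Pf4, the chemokine CXCL4, known from platelets and also made by macrophages, was at 523, 459, 496 and 384 CPM in WT Rosa26 and 822, 932, 943 and 817 in WT TKO (0.92 ± 0.09, adjusted p = 5.4e-06). The other 9 erythroid and megakaryocyte markers summed to 0.823 to 1.85 CPM in Rosa26 and 1.43 to 2.59 in TKO, and 8 of the 10 were under 1 CPM in every WT library. Ccl4, an inflammatory chemokine, fell, from 36.9, 39.7, 72.1 and 45.0 CPM in Rosa26 to 24.7, 26.7, 38.9 and 26.3 in TKO (-0.72 ± 0.09, adjusted p = 1.4e-04).

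Of 8 markers of monocytes, which include F13a1, 4 passed the filter on low counts, and F13a1 and Ccr2, the receptor of the monocyte chemokine CCL2, rose. The summed level of the 8 was 29.2 to 59.0 CPM in Rosa26 and 98.8 to 136 in TKO, and without F13a1 it was 28.0 to 58.3 against 54.0 to 79.9. Ccr2 rose by 0.80 ± 0.19 (adjusted p = 0.0226, lost in 4 single-library omissions, up to 0.103 without WT TKO replicate 4), and Vcan, a matrix proteoglycan among the 8, was at 33.9, 32.2, 22.1 and 49.4 against 48.3, 68.4, 42.4 and 54.5 CPM (0.66 ± 0.20, adjusted p = 0.107). The summed monocyte markers moved with the edit beside F13a1, Ccl8 and the receptor genes, and their part in those results was not tested.

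Inflammatory genes moved in both directions: 7 rose, 2 fell and 13 of 22 were not called (median log2 change 0.33), and 4 chemokine genes of the list above count here too. Socs3, an inhibitor of cytokine signalling, rose from 0.897 ± 0.143 to 3.36 ± 0.251 CPM (SD, n = 4; 1.87 ± 0.26, adjusted p = 2.4e-04). Ptgs2, the prostaglandin synthase COX-2, rose from 5.07 ± 0.754 to 9.07 ± 1.14 (0.86 ± 0.15, adjusted p = 0.00348). Tlr2, the receptor of bacterial lipopeptides, was at 29.2, 34.2, 28.4 and 46.1 CPM in Rosa26 and 60.3, 80.8, 57.2 and 72.6 in TKO (0.97 ± 0.11, adjusted p = 4.7e-05). Cd86, a costimulatory ligand of T cells, was at 15.4, 15.7, 15.3 and 16.5 against 33.4, 29.8, 28.3 and 32.2 CPM (0.97 ± 0.11, adjusted p = 2.3e-05), with the groups far apart.

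Of the interferon-stimulated genes, 4 rose, 0 fell and 33 of 37 were not called (median log2 change 0.32). They were Rsad2, the antiviral protein viperin (0.71, from 44.8 to 72.6 CPM, adjusted p = 0.00629), Ifit2 (1.22, from 2.68 to 6.43, adjusted p = 0.00980), Ifit3 (0.60, from 7.04 to 10.9, adjusted p = 0.0419) and the guanylate-binding protein gene Gbp3 (0.72, from 6.31 to 10.4, adjusted p = 0.00850). The last 3 are of families with similar copies. Of the immediate early genes, Ier3 rose from 32.8 ± 6.77 to 58.4 ± 2.56 CPM (0.83 ± 0.10, adjusted p = 5.8e-05) and the transcription factor gene Klf4 by 0.60 ± 0.13 (adjusted p = 0.0169), while Nr4a1, an orphan nuclear receptor, fell by 0.41 ± 0.08 (adjusted p = 0.00868). Ifit2 (lost in 1 of 8) had adjusted p = 0.0598 without WT Rosa26 replicate 2. Ifit3 (lost in 6 of 8) and Gbp3 (lost in 1 of 8) had adjusted p = 0.199 and 0.0548 without WT TKO replicate 2. Klf4 (lost in 3 of 8) and Nr4a1 (lost in 1 of 8) had adjusted p = 0.0807 and 0.0537 without WT TKO replicate 4.

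In the glycolysis and hypoxia list, 2 rose, 2 fell and 21 of 25 were not called (median log2 change 0.07), against 2.18% and 1.16% of all genes. Hk2, a hexokinase, was at 46.2, 55.4, 72.1 and 65.8 CPM in WT Rosa26 and 87.7, 99.4, 88.4 and 104 in WT TKO (0.67 ± 0.09, adjusted p = 3.3e-04). Pfkfb3, which makes an activator of glycolysis, rose from 61.1 ± 8.40 to 87.8 ± 8.62 CPM (SD, n = 4; 0.53 ± 0.10, adjusted p = 0.00355). Pdk1, the kinase of pyruvate dehydrogenase, and Hk3, another hexokinase, fell by 0.45 ± 0.10 (adjusted p = 0.0202) and 0.44 ± 0.12 (adjusted p = 0.0430). Tfrc, the transferrin receptor for iron uptake, fell from 104 ± 20.5 to 74.2 ± 14.9 CPM (-0.49 ± 0.09, adjusted p = 0.00518); whether the hTfRmu/hu knock-in changes how its tags are counted was not tested.

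Of the cell cycle genes, against the same shares of all genes, 0 rose, 2 fell and 32 of 34 were not called (median log2 change -0.30); these were the kinase Cdk1 (-0.49, adjusted p = 0.0106) and Birc5, or survivin (-0.51, adjusted p = 0.0359), and 29 of the 34 had a change below 0. Of the p53 targets, 2 rose, 0 fell and 21 of 23 were not called (median log2 change 0.10), namely the death receptor Fas (0.75 ± 0.14, adjusted p = 0.00532) and the cell death gene Pmaip1 (0.51 ± 0.10, adjusted p = 0.00741). With both WT libraries of a batch left out, Fas was called in 2 of 4 fits (adjusted p up to 0.056) and Pmaip1 in 3 (up to 0.0529). Of 36 nuclear genes of oxidative phosphorylation edgeR called 0, with 13 at an unadjusted p under 0.05, DESeq2 called 1 and limma 0. The change was below 0 in 33 of them, with a median of -0.13 and the smallest p in Atp5pb (-0.26 ± 0.07, adjusted p = 0.0518). Over all 15385 genes tested, 7996 had a change below 0 in WT, which stands beside these 33 and the 29 of 34 cell cycle genes. Of 13 mitochondrially encoded genes, 20 of the unfolded protein response and 58 of cytosolic ribosomal proteins, edgeR, DESeq2 and limma called 0, with 2, 2 and 0 at an unadjusted edgeR p under 0.05. Among the genes that rose, the 5 with the highest levels in WT Rosa26 included Sat1 and Atp2b1. Sat1, which acetylates polyamines, rose from 757 ± 165 to 1087 ± 82.5 CPM (log2 change 0.53, adjusted p = 0.0468), and Atp2b1, a calcium pump of the plasma membrane, from 643 ± 62.1 to 761 ± 43.8 (0.25, adjusted p = 0.0318). Pdk1 (lost in 3 of 8), Hk3 (lost in 6 of 8) and Cdk1 (lost in 1 of 8) had adjusted p = 0.108, 0.176 and 0.0633 without WT TKO replicate 2. Birc5 (lost in 6 of 8) and Atp2b1 (lost in 7 of 8) had adjusted p = 0.151 and 0.134 without WT TKO replicate 2. Sat1 (lost in 6 of 8) had adjusted p = 0.152 without WT TKO replicate 4.

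In the other lists the counts stand against 2.18% of all genes higher and 1.16% lower. Of 16 genes of fatty acid oxidation 0 rose and 2 fell, of 11 osteoclast genes 0 rose and 1 fell, and of 7 cyclin-dependent kinase inhibitors 0 rose and 1, Cdkn1c, fell. Of 19 genes of the integrated stress response, which senses amino acid shortage, 3 rose, Nupr1 among them, and 1 fell, which was Psat1. Of 18 antioxidant and iron genes 3 rose, including Cp, and 2 fell, including Tfrc. Of 19 genes of macrophage identity 3 rose and 1 fell, and of 19 of efferocytosis, the uptake of dying cells, 2 rose and 3 fell. Of 12 genes of antigen presentation by MHC class II 1 rose, which was Cd86, of 19 Toll-like receptor genes 2 rose, of 18 matrix protease genes 1 rose, which was Mmp14, and 0 fell in these lists. Several genes count in more than 1 list.

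**Figure D3:**
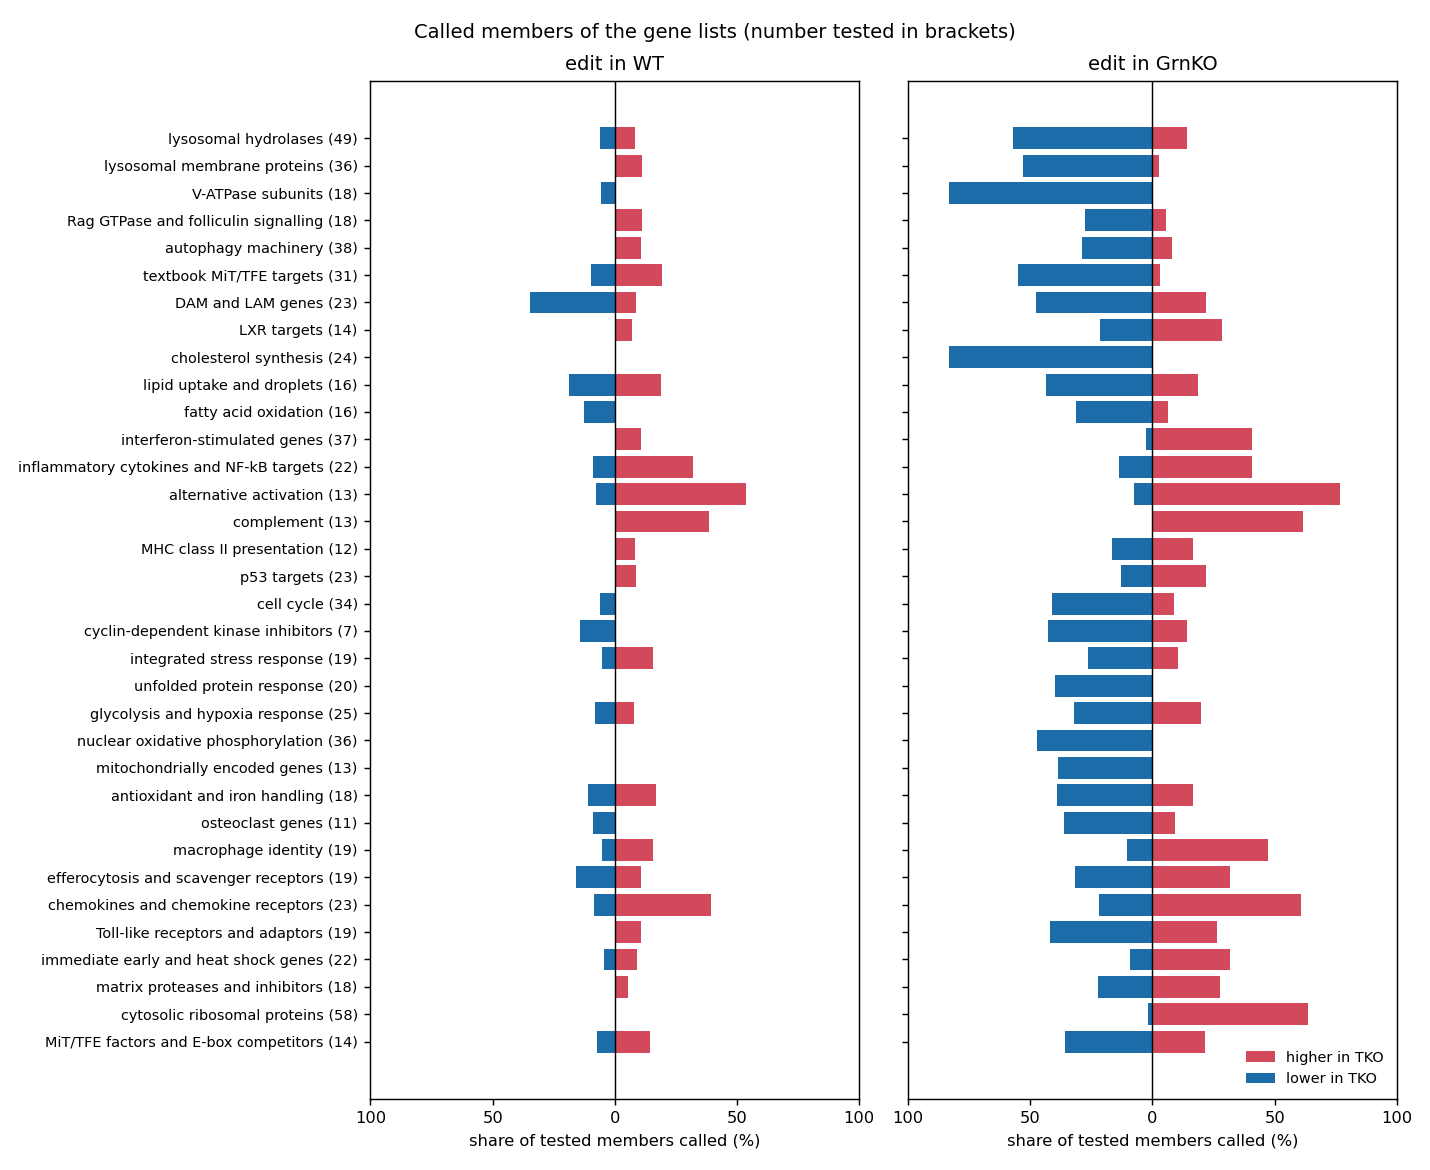
Share of the tested members of each gene list that were called higher (red, to the right) or lower (blue, to the left) with the edit in WT (left panel) and in GrnKO (right panel); DAM and LAM are disease-associated microglia and lipid-associated macrophages. In WT, 2.18% of all genes rose and 1.16% fell, and in GrnKO 14.8% and 17.8%. The lists of alternative activation, complement, chemokines and inflammatory cytokines had the longest red bars in WT, and V-ATPase subunits had 1 called member in WT and 15 in GrnKO. A difference between the edits was called in 8 of the 18 V-ATPase subunits.

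The same edit in GrnKO macrophages called 5011 of 15385 genes (32.6%), 2271 higher and 2740 lower. These cells share no library with the WT comparison. Of the 336 genes that rose in WT, 182 also rose in GrnKO (54.2% of the WT list and 8.01% of the GrnKO list), 27 fell and 127 were not called. Of the 179 that fell, 83 also fell (46.4% and 3.03%), 14 rose and 82 were not called. A difference between the edits was called in 2067 genes (13.4%; 7.63% above 0 and 5.80% below), among them 113 of the 336 and 65 of the 179.

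In GrnKO cells F13a1 was at 0.214 to 0.608 CPM in Rosa26 and 12.6 to 22.6 in TKO, a log2 change of 5.69 ± 0.29, adjusted p = 1.0e-08, and the difference between the genotypes was not called (0.20 ± 0.54, adjusted p = 0.844). Gpnmb lay at 4543 to 4718 CPM with Rosa26 and at 1931 to 2418 with TKO (-1.09 ± 0.09, adjusted p = 1.2e-07; difference 0.28 ± 0.13, adjusted p = 0.146). Tfe3 fell in both (-0.51 ± 0.17, adjusted p = 0.0351 in GrnKO; difference -0.39 ± 0.24, adjusted p = 0.299), while Mitf was higher in TKO than in Rosa26 cells of GrnKO (0.25 ± 0.09, adjusted p = 0.0490) and differed from WT (-0.49 ± 0.13, adjusted p = 0.0187, and up to 0.0603 in 2 of 16 fits that each left out 1 library). C1qa rose in both and more in GrnKO, with a difference of -0.61 ± 0.10, adjusted p = 8.5e-04. Lifr did likewise, at 2.34 in GrnKO against 1.47 in WT (-0.87 ± 0.14, adjusted p = 7.4e-04).

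Some genes of autophagy and nutrient sensing differed between the genotypes. Rragd rose in WT and had a log2 change of 0.03 ± 0.08, adjusted p = 0.786, in GrnKO, where it was at 59.4 to 70.0 CPM in Rosa26 and 57.8 to 73.2 in TKO, a difference of 0.68 ± 0.12, adjusted p = 0.00184. Gabarapl1 fell in GrnKO, where it was at 229 to 262 CPM in Rosa26 and 138 to 168 in TKO (-0.70 ± 0.08, adjusted p = 2.9e-06; difference 1.03 ± 0.11, adjusted p = 1.5e-05). Slc36a1, Bhlhe41 and Bhlhe40 rose in WT and fell in GrnKO as well, with differences of 0.96 ± 0.13, adjusted p = 2.2e-04, of 0.89 ± 0.12, adjusted p = 1.6e-04 and of 1.15 ± 0.13, adjusted p = 4.1e-05. In the GrnKO Rosa26 controls these genes stood higher than in the WT controls by library range: Slc36a1 was at 101 to 115 against 40.0 to 54.1 CPM, and Bhlhe41 at 60.8 to 76.9 against 27.7 to 34.6.

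By list, in GrnKO cells, 7 rose and 28 fell (median -0.24) among the 49 lysosomal hydrolases. In the 36 lysosomal membrane proteins 1 rose and 19 fell (median -0.27). In the 18 V-ATPase subunits 0 rose and 15 fell (median -0.29), in the 31 MiT/TFE targets 1 rose and 17 fell (median -0.27) and in the 24 cholesterol synthesis genes 0 rose and 20 fell (median -0.47). These GrnKO counts stand against 14.8% and 17.8% of all genes. In WT the same lists had 4 and 3, 4 and 0, 0 and 1, 6 and 3, and 0 and 0 called members. A difference between the edits was called above 0 in 13, 17, 8, 11 and 13 of their members. Below 0 it was called in 0, 0, 0, 1 and 0, against 7.63% and 5.8% of all genes. GrnKO libraries held total counts of 28431639 to 32969630 in Rosa26 and 18387630 to 28511950 in TKO. The part of depth in the counts of called genes was not tested.

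Hk2, Hilpda and Ier3 rose in WT and had log2 changes of -0.24, -0.36 and -0.13 in GrnKO, with differences of 0.90 ± 0.13, adjusted p = 3.5e-04, of 0.96 ± 0.13, adjusted p = 2.2e-04 and of 0.96 ± 0.14, adjusted p = 3.3e-04. The unnamed ENSMUSG00000120878 lay at 339.6 to 456 CPM in the GrnKO controls and at 374 to 526 after the edit, with a difference of 1.12 ± 0.14, adjusted p = 1.5e-04. Other genes fell in WT, were not called in GrnKO and had a called difference, such as Cd36 (0.04 in GrnKO; difference -0.70 ± 0.16, adjusted p = 0.00960), Pparg (0.21; -0.84 ± 0.18, adjusted p = 0.00686), Serpinb6b (-0.16; -0.86 ± 0.15, adjusted p = 0.00113) and Nes (0.14; -1.15 ± 0.23, adjusted p = 0.00483). Cd36 lay at 852 to 1153 CPM in the GrnKO controls and at 825 to 1262 after the edit. Serpinb6b lay at 45.6 to 57.2 and at 39.6 to 53.

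Dio2 and Mgll had large differences and were low in WT cells of both edits. Dio2, a thyroid hormone deiodinase, was at 1.23, 0.958, 1.76 and 1.65 CPM in WT Rosa26 and 0.219, 0.621, 0.531 and 0.545 in WT TKO (-1.54 ± 0.28, adjusted p = 0.00346), against 57.2 to 73.4 and 1.38 to 2.97 in GrnKO (difference 3.28 ± 0.36, adjusted p = 3.2e-05). Mgll, monoacylglycerol lipase, was at 0.548 to 1.38 and 0.177 to 0.603 CPM in WT (-1.11 ± 0.40, adjusted p = 0.148), with a difference of 2.89 ± 0.49, adjusted p = 0.00130. In contrast to these, Pamr1, a secreted protein with protease-like domains, was at 54.1 to 142 and 63.6 to 109.7 CPM in WT (0.13 ± 0.17, adjusted p = 0.757), with a difference of -2.57 ± 0.25, adjusted p = 8.3e-05. Cdkn1c, Fabp4 and Mfge8 fell in both genotypes and further in GrnKO, with differences of 2.22 ± 0.34, adjusted p = 0.00110, of 1.37 ± 0.19, adjusted p = 3.4e-04 and of 1.46 ± 0.16, adjusted p = 5.2e-05.

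**Figure D4:**
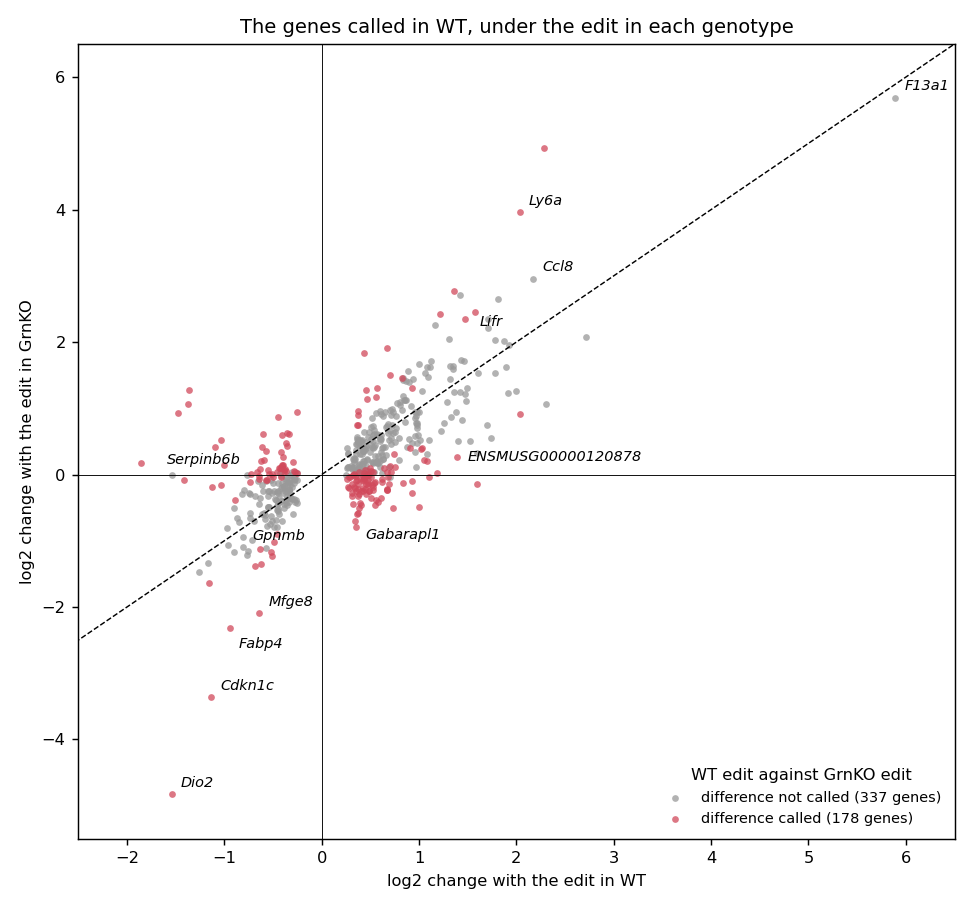
Each of the 515 genes called in WT, with its log2 change under the edit in WT on the x axis and in GrnKO on the y axis; the dashed line marks equal changes. Red points are the 178 genes whose difference between the edits was called. F13a1 lies near the line, Cdkn1c, Fabp4 and Mfge8 lie below it, and Gabarapl1 is higher in WT TKO and lower in GrnKO TKO.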

How the data were processed

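Macrophages in 16 samples, from 16 animals per the series' design text (4 groups of 4 in 4 batches), were profiled by QuantSeq 3′ mRNA sequencing with unique molecular identifiers, per the labels' protocols. The submitters' processing notes name the build GRCm39 and, without roles, R 4.5.1, edgeR 4.6.2, Salmon 1.10.1 and STAR 2.7.9a. How counting used strand is not given in the sources used here, so overlapping and near-identical genes are uncertain. The authors deposited estimated counts for 56980 genes, rounded to 2 significant digits (11.0% of non-zero values were not whole), and a normalised signal that matched CPM from the counts over the effective library size to a ratio of 0.933 to 1.07. For the tests each estimated count was rounded to a whole number.

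edgeR 4.0.16 (R 4.3.3; TMM scaling, filterByExpr, robust quasi-likelihood) was fitted to all 16 libraries with group and batch, and p-values were adjusted by Benjamini-Hochberg over 15385 genes. The SE of an edgeR change was computed as the absolute log2 change over the square root of the test's F statistic. It is approximate, and the SEs of 2 changes need not combine to that of their difference. Levels are CPM computed here from the deposited counts over the effective library size. Batch numbers pair the libraries, per the series' design text and the order of the titles. Deviations of same-batch WT libraries correlated by 0.291 to 0.534. Members and gene lists were chosen with earlier results of these data known. Named genes were the targeted genes, the 15 largest rises and falls at a mean of 5 CPM or more, up to 4 members per list by smallest p, the 5 largest differences between genotypes in each direction and the called genes of highest level; of these, those described are given, and 1 withheld item is not reported here. On simulated data for the edit in WT (15130 genes, 50 changed per size) 34% of log2 changes of 0.5, 55.1% of 1, 95.9% of 2 and 97.9% of 3 were recovered, with 5 false calls. The simulated counts held no batch differences and no library that stood apart, so these figures need not hold for the data. Alternatives were DESeq2 1.42.0, limma 3.58.1 with pseudocounts of 1 and 0.5, other scaling and filters, no block, and omissions of each library and batch.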

Additional observations from a re-analysis of the deposited data

Results flagged for a closer look

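Among the genes named, 50 had a log2 change with the edit that differed between WT and GrnKO cells at an adjusted p under 0.05 (edgeR, the interaction of genotype and edit). All values are the change in WT minus the change in GrnKO on the log2 scale. The difference was above 0 for Dio2 (3.28), Mgll (2.89), Cdkn1c (2.22), Mfge8 (1.46), Fabp4 (1.37), Bhlhe40 (1.15), ENSMUSG00000120878 (1.12), Gabarapl1 (1.03), Hilpda (0.96), Ier3 (0.96), Slc36a1 (0.96), Hk2 (0.90), Bhlhe41 (0.89), Rragd (0.68), Fnip2 (0.64), Sidt2 (0.63), Plekhm1 (0.59), Ctns (0.58), Rsad2 (0.58), Tfrc (0.53), Cpe (0.48), Optn (0.47), Npc1 (0.46), Pmaip1 (0.45), Lamp1 (0.37) and Rragc (0.33). It was below 0 for Pamr1 (-2.57), Ly6a (-1.93), Fgf13 (-1.56), Sncaip (-1.52), Tmem176b (-1.21), Folr2 (-1.20), Nes (-1.15), Vcan (-1.14), Nr4a1 (-0.999), Cp (-0.88), Lifr (-0.87), Serpinb6b (-0.86), Pparg (-0.84), Itgam (-0.82), Cd55 (-0.80), Cd36 (-0.70), Adgre1 (-0.64), C1qa (-0.61), Lpl (-0.52), Psat1 (-0.51), Mitf (-0.49), Hif1a (-0.39), Pf4 (-0.38) and Trem2 (-0.27).

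Of these 50 differences, 34 were called in all 16 fits that each left out 1 library. Among the other 16 the call was lost for Mitf in 2, Ly6a in 8, Cp in 2, Cpe in 11, Psat1 in 11, Rragc in 5, Optn in 5, Hif1a in 3, Lpl in 6, Trem2 in 14, Cd55 in 8, Pf4 in 11, Rsad2 in 12, Pmaip1 in 12, Vcan in 5 and Tmem176b in 9 of those fits.

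In 11 of 226 groups of 4 libraries of the named genes, 1 library stood far from the other 3; chance gives about 1 in 20. The Grn level of WT TKO replicate 1 was low at 2522 CPM. Of 5 genes a WT Rosa26 library stood high or low for its group: Slc13a3 in replicate 4 at 17.0 CPM, Tox2 in replicate 3 at 10.4, Npc1 in replicate 4 at 93.3 (all high), Fas in replicate 1 at 6.16 and Msmo1 in replicate 4 at 176 (both low). In WT TKO, replicate 3 was high for Ctsd at 5778 CPM and for Ccl4 at 38.9, and replicate 4 was low for Gipc2 at 2.27 and for Nr4a1 at 44 and high for Bhlhe41 at 44.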

How the results depend on the processing

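For the edit in WT, 515 genes were called (336 higher, 179 lower). DESeq2 called 808 (506 and 302), the fit with no replicate block 216 (164 and 52), and the fit with no filter on low counts 520 higher. A fit of the WT libraries alone, with the batch block kept, called 680 (442 and 238). Omissions of a library or a batch gave 184 to 771 genes, 137 to 450 of them higher and 47 to 324 lower; 184 was without both libraries of batch 2. For the edit in GrnKO, omissions gave 3036 to 5096 genes (1286 to 2415 higher, 1750 to 2742 lower), and the fit of only the genotype compared gave 3608 higher. For the difference, omissions gave 283 to 3608 genes (150 to 1924 higher, 133 to 1684 lower), the fit with no replicate block 910 (549 and 361), and 1860 were higher with no filter, 2027 with limma on CPM + 1 and 2020 on CPM + 0.5. Limma on CPM + 1 placed 34.0% of GrnKO calls higher (45.3% with edgeR) and 76.4% of the differences (56.8%). The batch block was 1 term per batch, shared by WT and GrnKO libraries, and the batches are those of the series' design text.

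Of the 97 named genes called in WT, 51 were called in all 8 single-library omissions, 44 in all 4 omissions of a batch and 38 in every setting run. Of the 51, 8 were lost in 1 or more batch omissions: Tox2 (adjusted p up to 0.0503), Rsad2 (0.0738), Tfrc (0.0697), Hif1a, Cd36, Fas, Pmaip1 and Mfge8. Reversed signs were seen in 6 genes not called: Grn, at -0.21 (without WT Rosa26 replicate 2) to 0.038 (without replicate 1), and Pamr1, at -0.054 (without WT Rosa26 replicate 3) to 0.33 (without WT Rosa26 replicate 1), Adgre1, at -0.011 to 0.17, Mcoln1, at -0.14 to 0.23, and Lamp1, at -0.061 to 0.030, the last 3 over the omissions. Lamp1 was at 0.012 with no filter and at 0.0025 by limma on CPM + 1 and on CPM + 0.5, and Sqstm1 at 0.0018 and 0.0019. The cause was not tested. Counts of a few reads and values of 2 digits limit the low genes.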
